A study of Magallana angulata with 9 samples.

Results

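The 3 cryopreserved libraries of Portuguese oyster (Crassostrea angulata) D-larvae were compared with the 3 fresh libraries, which makes 6 of the 9 libraries of the study. They were chosen by their labels, and each cryopreserved library was paired with the fresh library of the same replicate number, which comes from the same larval pool. The remaining 3 libraries, of cryoprotectant exposed larvae, were left out of the comparison. Each pool was the offspring of several males and females crossed together, so that a library mixes many sibling groups of larvae.

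The cryopreserved larvae spent 3 min of equilibration at 4 °C in cryoprotectants, namely dimethyl sulfoxide at 10%, polyvinylpyrrolidone at 1% and sucrose at 0.2 M. They were then frozen in 0.5 mL straws of 30000 larvae, at 2.5 °C/min to -10 °C with a hold of 5 min, at 0.3 °C/min to -20 °C and at 2.5 °C/min to -35 °C. After 2 months in liquid nitrogen the straws were thawed at 37 °C for 10 s, and the larvae recovered for 1 h in filtered seawater before they were collected on a 30 µm mesh. The fresh larvae of the same pools were concentrated in filtered seawater. All pools had been concentrated to about 120000 larvae per mL and kept on ice for at most 2 h. The groups therefore differ in the whole procedure, and the shares of cryoprotectant, freezing, storage, thawing, recovery bath and washing in a change cannot be told apart here.

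D-larvae are the first shelled stage of an oyster. They swim and feed with a ciliated organ, the velum, and lay down the first larval shell. Freezing can harm such a multicellular larva through ice crystals, osmotic shrinkage and swelling and chilling of membranes, and cryoprotectants such as dimethyl sulfoxide lower the amount of ice formed and replace cell water. A library made from whole larvae reads the RNA of all their cells at once, so that fewer cells of a type and less RNA per cell cannot be told apart, nor can larvae that died from larvae that survived with altered expression.

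Expression was given as Salmon estimated counts per gene, which summed to between 22367780 and 24440543 in the cryopreserved libraries and to between 24482043 and 45051399 in the fresh libraries. A count of 0 allows up to 3 counts, which is 0.128 to 0.150 CPM, that is, counts scaled to a common library size by TMM, in cryopreserved libraries and 0.0578 to 0.115 CPM in fresh libraries, counting error only. The table identifies genes by NCBI gene numbers of Crassostrea gigas, the related species whose genome was used for mapping. No names stand beside these numbers in the files, and 0 of the numbers occur in the gene table of the Crassostrea angulata assembly used here (ASM2561291v2), so that genes are described by their numbers, levels and changes, and 4 are named. The markers of larval tissues could not be checked for the same reason.

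Of the 28372 genes listed, 22023 had at least 5 counts in at least 3 of the 6 libraries and were tested. They held 99.965% of the counts. In edgeR's quasi-likelihood test with the pool as a block, 770 genes (3.5% of those tested) were past both thresholds, an adjusted p of 0.05 and a log2 fold change of 1.5 in size (2.83-fold), and are called differentially expressed genes (DEGs). Of these, 299 were upregulated (1.36%) and 471 downregulated (2.14%) in cryopreserved larvae. Without pool 3, 184 up- and 353 downregulated DEGs were called. Over the 3 pools together, the falls were the larger changes, but in pool 1 alone the rises were. The median log2 fold change was 1.88 (3.68-fold) among upregulated DEGs, with quartiles at 1.66 and 2.31. It was -2.45 (5.45-fold) among downregulated DEGs, with quartiles at -3.11 and -1.88. A fold over 8 was reached by 31 upregulated and 133 downregulated DEGs, and a fold over 16 by 10 and 19. In 8 upregulated DEGs all 3 fresh libraries, and in 13 downregulated DEGs all 3 cryopreserved libraries, had at most 3 counts. With the low side of these genes set to 3 counts, 28 rises and 125 falls exceeded 8-fold, and the medians were 1.88 and -2.43. Such a fold is a lower bound only where all counts on the low side were 0, in 1 rise and 2 falls. Among DEGs with over 3 counts in at least 1 library of each group, the extreme changes were 5.28 and -4.98 on the log2 scale.

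**Figure D1:**
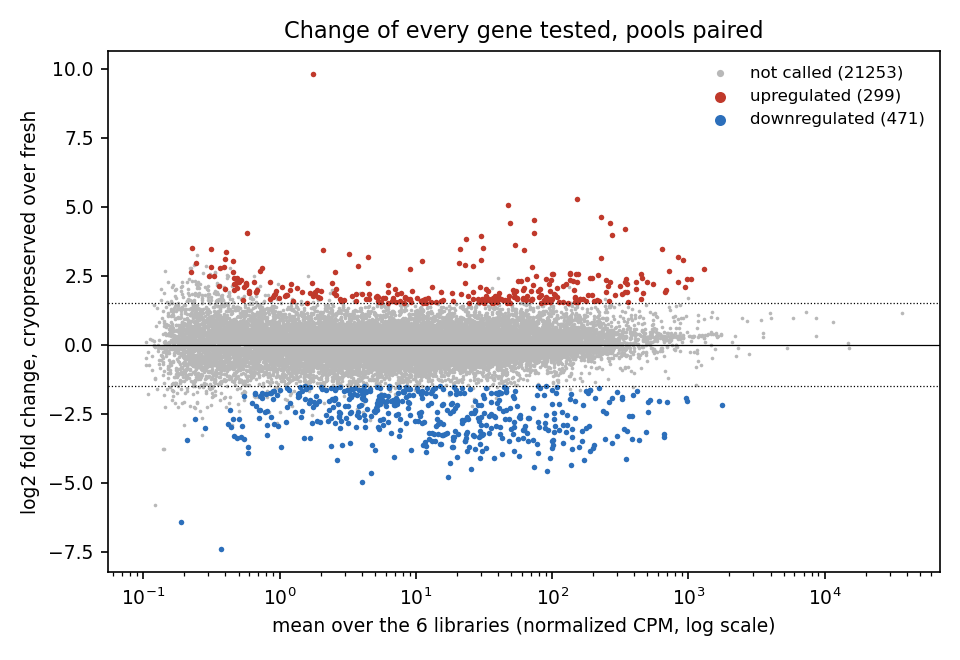
Log2 fold change of cryopreserved over fresh larvae (vertical axis) against mean normalized CPM over the 6 libraries (horizontal axis, log scale) for the 22023 genes tested. Grey points were not called, red points are the 299 upregulated and blue points the 471 downregulated DEGs, and dotted lines mark 1.5 and -1.5. The blue points reach further from 0 than most red ones, and the few points beyond 6 in size at low CPM are fitted values of genes with 3 or fewer counts in every library of 1 group.

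Without the limit on size, 2514 genes (11.4%) passed the adjusted p of 0.05 in that edgeR test, and here the rises were more numerous, with 1394 genes higher (6.33%) and 1120 lower (5.09%) in cryopreserved larvae. These counts moved with the pool left out, to 1997 genes higher and 1646 lower without pool 1, 953 higher and 655 lower without pool 2 and 315 higher and 461 lower without pool 3. In the fit of all pools, the directions were divided by size. Of the genes higher in cryopreserved larvae, 654 changed by at most 2-fold, against 355 of the genes lower there. Small rises outnumbered small falls, while beyond 4-fold there were 120 upregulated and 328 downregulated DEGs. This split depends on the scaling. When counts were scaled by library size alone, the median log2 fold change shifted to -0.21 (against -0.01 with TMM), 165 genes were up- and 585 downregulated DEGs, and at any fold change 789 genes were higher and 2021 lower. With DESeq2's size factors or the upper quartile the split stayed close to that with TMM, with 315 up- and 470 downregulated, and 303 up- and 477 downregulated DEGs.

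A test of whether a change lies beyond the 1.5 limit itself, edgeR's glmTreat, called 92 genes (0.418%), 28 of them higher (0.127%) and 64 lower (0.291%) in cryopreserved larvae. The other DEGs differed from no change, but their distance from the limit was not resolved with 3 pairs.

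Relative to the TMM scaling, most genes were not far from their fresh level. The scaling places the bulk of the genes near no change. A change in RNA per larva shared by most genes would therefore not be seen here. The log2 fold change had a median size of 0.33 over the genes tested, and 90% of the genes lay between -1.08 and 1.07. In limma-voom with the pool as a block, the 95% interval of the log2 fold change lay wholly between -1 and 1 for 12798 genes (58.1%), which is a change of less than 2-fold in either direction. Over all genes, the intervals reached a median of 0.47 to either side of the estimate. With the limit at 0.5, 3076 genes (14%) had such an interval. The intervals are per gene and not adjusted for the number of genes. Of the 3678 genes with a mean under 1 CPM, 4.95% had an interval inside the 2-fold limit, against 79% of the 9105 genes between 10 and 100 CPM, so that for most rare transcripts neither a change nor its absence was shown.

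Named by a rule were, in each direction, the gene with the smallest p-value and the gene with the highest mean level among the 233 upregulated and 411 downregulated DEGs that moved the same way in every pool and averaged 50 counts or more. Their products are not given by the files.

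Gene 105329012 was the rise with the smallest p-value. It had 407.5, 422.3 and 480.9 CPM in the cryopreserved larvae of pools 1, 2 and 3, against 12.3, 21.7 and 20.1 CPM in the fresh larvae. Every cryopreserved library lay far above every fresh one, and the cryopreserved libraries were close to each other. The mean was 436.9 ± 38.8 CPM in cryopreserved and 18.0 ± 5.03 CPM in fresh larvae (SD, n = 3 each), 4.64 ± 0.22 higher on the log2 scale (edgeR estimate ± standard error, adjusted p = 0.000736). The log2 ratios within the pools were 5.05, 4.28 and 4.58. In cryoprotectant exposed larvae, normalized together with all 9 libraries, it had 5.16, 20.3 and 17.7 CPM.

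Gene 105345814 was the upregulated DEG with the highest mean level, number 45 of all genes tested. Its levels were 1941, 2732 and 2037 CPM in the cryopreserved larvae of pools 1, 2 and 3, against 244, 447.6 and 337.4 CPM in the fresh larvae. The groups did not overlap, and pool 2 was the highest and pool 1 the lowest in both conditions. The edgeR log2 fold change was 2.73 ± 0.19 (standard error, adjusted p = 0.00149), with 2.99, 2.61 and 2.59 in the single pools. The cryoprotectant exposed larvae had 177.5, 458.9 and 486.1 CPM of it.

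Gene 105349083 was the fall with the smallest p-value. It had 2.25, 0.65 and 0.73 CPM in the cryopreserved larvae of pools 1, 2 and 3, from 49, 13 and 17 counts. The fresh larvae had 58.0, 20.9 and 19.8 CPM. Pool 1 was the highest of the 3 pools in both conditions, and the fall within the pools was nearly the same, with log2 ratios of -4.66, -4.91 and -4.68. The edgeR log2 fold change was -4.79 ± 0.18 (standard error, adjusted p = 0.000698). The level of this gene thus differed more between pools than its change did. It was chosen by its p-value in a fit paired by pool, which favours genes with even ratios. Over all downregulated DEGs the ratios had a median range of 1.59 between pools. In cryoprotectant exposed larvae it had 85.0, 36.7 and 43.7 CPM.

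Gene 105318674 was the downregulated DEG with the highest mean level, number 22 of all genes tested. It had 1395, 286.4 and 540.8 CPM in the cryopreserved larvae of pools 1, 2 and 3, against 3505, 1988 and 2807 CPM in the fresh larvae. The groups did not overlap, but the cryopreserved libraries spread widely. Its edgeR log2 fold change was -2.17 ± 0.30 (standard error, adjusted p = 0.00914), and the ratio in pool 1, -1.33, was smaller than those of -2.80 and -2.38 in pools 2 and 3. Without pool 3 its adjusted p-value was 0.0523, and without the block 0.144, in the same edgeR test. The cryoprotectant exposed larvae had 4560, 2441 and 3573 CPM.

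**Figure D2:**
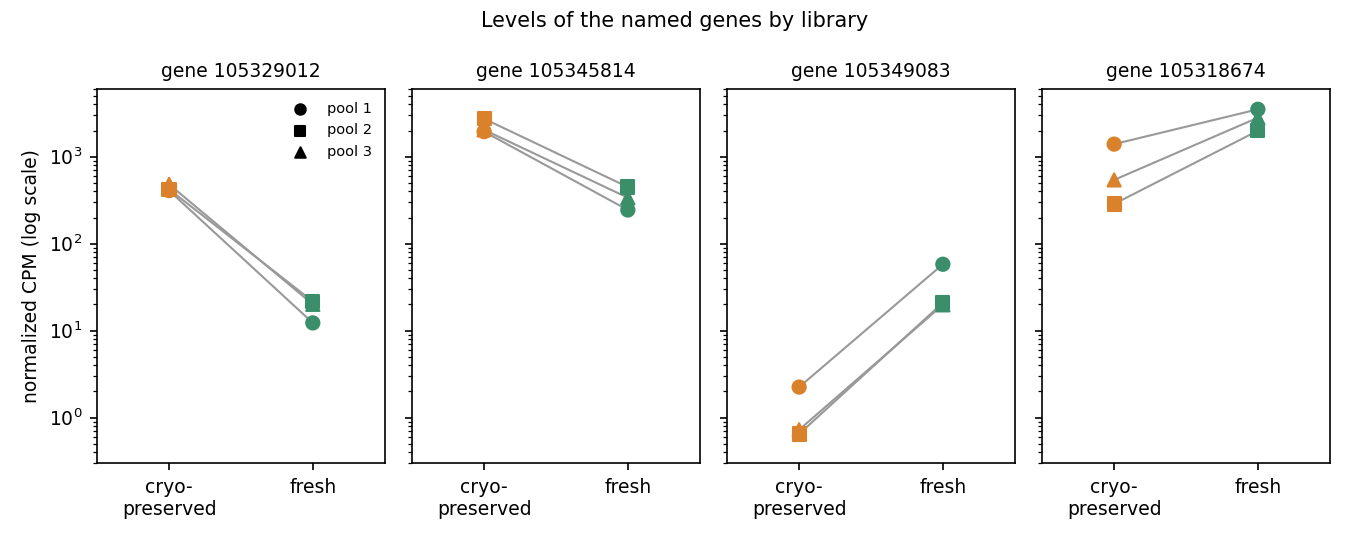
Normalized CPM (vertical axis, log scale) of the 4 named genes in the cryopreserved (orange, left) and fresh (green, right) library of each pool, with a line joining the libraries of a pool. The lines of gene 105349083 run nearly parallel at -4.66 to -4.91 on the log2 scale, which its choice by p-value favours. That of pool 1 is the flattest in gene 105318674 at -1.33.

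The DEGs were found over the whole range of abundance. Of the 1922 genes with a mean between 100 and 1000 CPM, 7.39% were DEGs, 72 up- and 70 downregulated, the highest share of the 5 classes. Between 1 and 10 CPM the downregulated DEGs were 170 and the upregulated DEGs 67 of 7250 genes. Between 10 and 100 CPM they were 188 and 114 of 9105 genes. Under 1 CPM, 44 up- and 42 downregulated DEGs were found among 3678 genes (2.34%), and the median standard error was 0.51 there, against 0.16 between 10 and 100 CPM. Of the 68 genes over 1000 CPM, 2 were up- and 1 downregulated. The upregulated DEGs had a median level of 32.6 CPM and the downregulated DEGs one of 13.2 CPM, against 10.2 CPM over all genes tested. These levels and classes use the mean over both conditions. A rise lifts this mean above the fresh level and a fall brings it below. The 2 medians therefore do not show which DEGs were the more abundant in fresh larvae. The shares by abundance were not compared by a test.

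**Figure D3:**
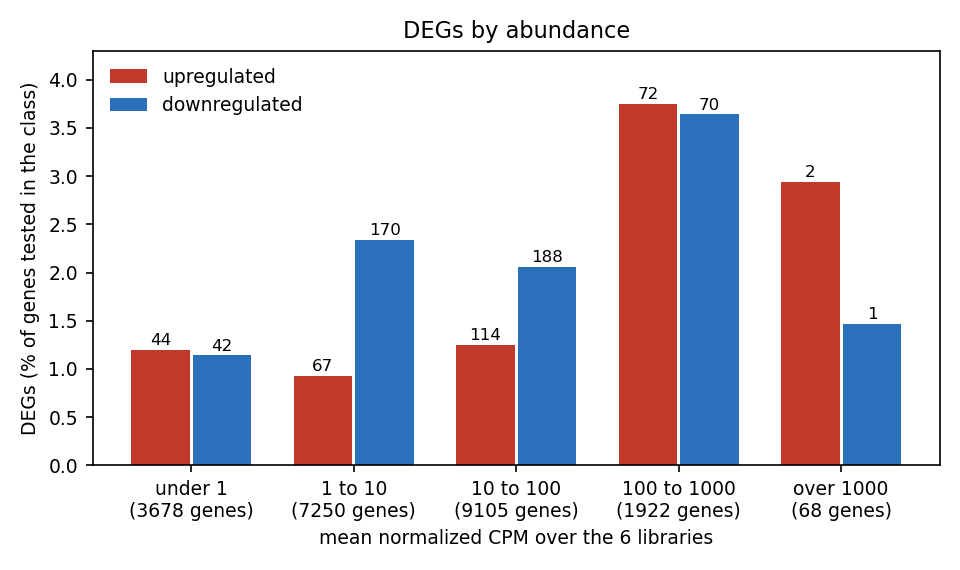
Percent of the genes tested in each class of mean normalized CPM that were upregulated (red) or downregulated (blue) DEGs, with the number of DEGs above each bar. Between 1 and 100 CPM the blue bars are the taller ones, and between 100 and 1000 CPM the bars are nearly level at 3.75% and 3.64%.

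In all, 33 genes were among the 20 most abundant of at least 1 library, and 12 of these in all 6. Of the 33 genes, 1 was an upregulated and 2 were downregulated DEGs (9.09%, against 3.5% of all genes tested). At any fold change, 7 of them passed the adjusted p of 0.05 in edgeR (21.2%, against 11.4%), 4 higher and 3 lower in cryopreserved larvae. A gene could enter the 33 through a high level in 1 condition only, a choice that favours genes that differ. These shares were not compared by a test. The 20 most abundant genes of a library held 14.8%, 19.4% and 16.1% of the counts in cryopreserved larvae of pools 1, 2 and 3, against 14.9%, 12.1% and 11.2% in fresh larvae. The share was higher in cryopreserved larvae in pools 2 and 3 and about equal in pool 1, with a mean difference of 4.00 percentage points ± 3.78 (SD, n = 3 pools). A 2-sided exact permutation test within pools gave p = 0.5, where 3 pairs cannot give a p below 0.25. After thinning each library to the lowest total of the 6, 24350 ± 367 genes had at least 1 count in cryopreserved and 24412 ± 62.9 in fresh larvae (SD, n = 3 each), with a 2-sided exact permutation p of 0.75. The mean difference within pools, -62 genes ± 379 (SD, n = 3 pools), lay inside the spread between them.

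Complete losses or gains were rare. With at least 5 counts in all 3 libraries of the other group, 3 genes were listed at 0 in all cryopreserved libraries and 1 gene in all fresh libraries. With the limit at 1 count these numbers were 52 and 20, but at so few counts a 0 can come from counting error. The fresh libraries also had the higher totals. A gene at 0 in every cryopreserved library with at least 20 counts in every fresh one did not occur (0 genes), and 1 gene showed the reverse.

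The DEGs together held a small part of the RNA. The 299 upregulated DEGs held 4.79%, 4.07% and 5.02% of the counts in cryopreserved larvae of pools 1, 2 and 3, against 0.927%, 1.27% and 1.29% in fresh larvae. The 471 downregulated DEGs held 1.43%, 0.44% and 0.795% of the counts in cryopreserved larvae, against 4.94%, 4.65% and 5.31% in fresh larvae. In the fresh larvae the share of the downregulated DEGs was thus similar in the 3 pools, with a mean of 4.97% ± 0.33 (SD, n = 3), while in the cryopreserved larvae pool 1 kept the largest share and pool 2 the smallest, with a mean of 0.89% ± 0.50 (SD, n = 3). The 10 most abundant DEGs of each direction held 29.5% of the counts of the upregulated and 28.1% of those of the downregulated DEGs. This is a share of the counts and not of the rises or falls. These shares describe genes that were chosen on the same libraries, and no test was made.

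**Figure D4:**
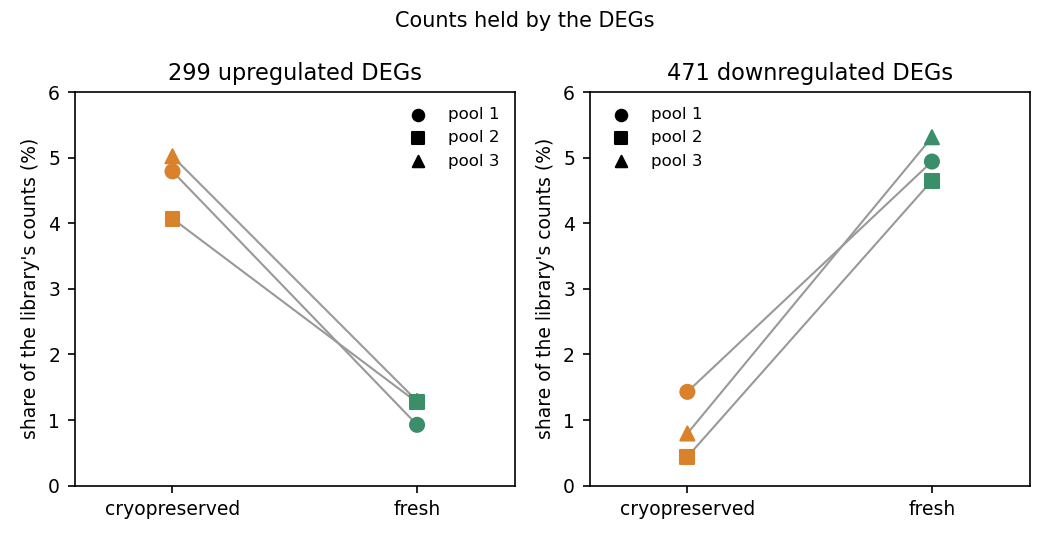
Percent of a library's counts held by the upregulated (left panel) and downregulated (right panel) DEGs in the cryopreserved (orange) and fresh (green) library of each pool, with a line joining the libraries of a pool. The downregulated DEGs end between 0.44% and 1.43% in cryopreserved larvae and lie between 4.65% and 5.31% in fresh larvae.

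The 3 pools gave 3 separate views of the procedure, since no library is shared between them. Across all genes tested, the log2 ratios of cryopreserved over fresh larvae correlated between pools with a Pearson r of 0.48 for pools 1 and 2, 0.54 for pools 1 and 3 and 0.61 for pools 2 and 3. Over the 16994 genes that averaged 50 counts or more, r was 0.57, 0.65 and 0.75. Genes are not independent replicates and the libraries of a pool share its genotypes, so these values only describe the pools. The ratio had the same sign in all 3 pools for 11467 genes (52.1%), 5705 of them higher (25.9%) and 5762 lower (26.2%) in cryopreserved larvae. Among the DEGs it did so for 298 of 299 up- and 470 of 471 downregulated genes, which is largely built in. In 107 up- and 257 downregulated DEGs the ratio exceeded 1.5 in size in every pool. That is 364 of the 770 DEGs, against 375 of the 22023 genes tested. This too is largely built in, since the DEGs were called on these ratios.

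The DEGs did not change equally in the pools, and the order of the pools depended on the direction. The median log2 ratio of the upregulated DEGs was 2.20 in pool 1, 1.56 in pool 2 and 1.91 in pool 3. That of the downregulated DEGs was -1.90 in pool 1, -3.11 in pool 2 and -2.48 in pool 3. Of the 471 downregulated DEGs, 328 had their smallest change in pool 1 and 332 their largest in pool 2. Of the 299 upregulated DEGs, 176 had their smallest change in pool 2 and 173 their largest in pool 1. Pool 1 thus had the larger rises and the smaller falls, and pool 2 the reverse. Within pool 1 the rises exceeded the falls in median size, while in pools 2 and 3 the falls exceeded the rises. The orders of these medians were the same with DESeq2's size factors, the upper quartile or library size only, where the falls had medians of -1.93, -3.37 and -2.73 and the rises of 2.17, 1.29 and 1.65 in pools 1, 2 and 3. With 1 library per pool and condition, the difference between pools was not tested. The study lists a lower mapping rate for the cryopreserved than for the fresh library in every pool. In both conditions pool 2 had the lowest rate. Whether this bears on the changes was not tested. The range of the ratio over the pools had a median of 0.99 in upregulated and 1.59 in downregulated DEGs, against 0.63 over all genes tested.

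**Figure D5:**
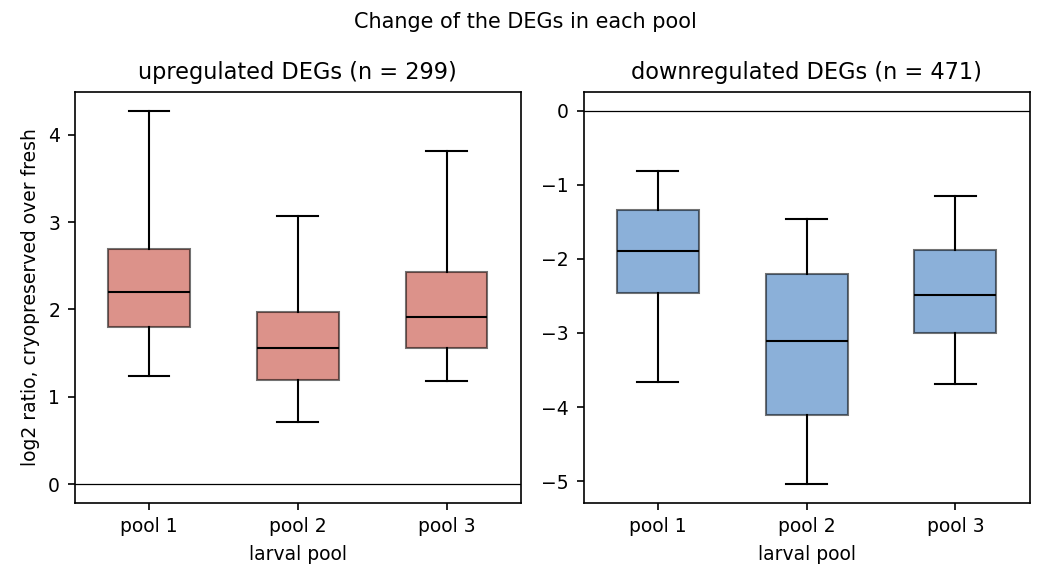
Log2 ratio of the cryopreserved over the fresh library of each pool for the upregulated (left) and downregulated (right) DEGs. Boxes give the quartiles, lines the median and whiskers the 5th and 95th percentile over genes. The medians run 2.20, 1.56 and 1.91 for the rises and -1.90, -3.11 and -2.48 for the falls in pools 1, 2 and 3.

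Genes called in 2 pools were read in the pool that was not used to choose them. Without pool 1 the paired edgeR fit called 254 up- and 597 downregulated DEGs that were also among the genes tested in all pools. In pool 1, 246 of these rises were higher (96.9%, against 49.7% of all genes tested), and 554 of these falls were lower (92.8%, against 50.2%). Without pool 2 there were 377 rises and 385 falls, and in pool 2 the ratio had the same direction for 361 of the rises (95.8%, against 48.4% of all genes) and for 382 of the falls (99.2%, against 51.2%). Without pool 3 there were 184 rises and 353 falls, of which 184 (100%, against 51.3%) and 345 (97.7%, against 48.6%) had the same direction in pool 3. The size carried over less evenly. The median ratio of the falls in the pool left out was -1.38 in pool 1, -3.38 in pool 2 and -2.47 in pool 3, and a ratio beyond -1.5 was seen for 45.9%, 86.8% and 70.8% of them. For the rises the medians were 1.94, 1.20 and 1.75, and 71.7%, 31.6% and 65.8% were beyond 1.5. These medians ran in the same order of pools as those of the DEGs. Each pool was read in a different set of genes, chosen on the other 2 pools, so they do not compare the pools on the same genes.

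Of the variation of log2 CPM over all genes tested, 55.9% lay between the 3 pools, 30.9% between the 2 conditions and 13.2% was left. Per degree of freedom, pools took 27.9% and conditions 30.9%. Of the first principal component of the 6 libraries (34.9% of the variance), 66.1% lay between pools and 33.1% between conditions. Pools have 2 degrees of freedom and conditions 1, so that per degree these shares were about equal. On this component the fresh library scored higher than the cryopreserved one in every pool. The second component (29.3%) split mainly by condition (63.7%, against 36.2% by pool). The common dispersion, edgeR's measure of the squared relative spread between libraries, was 0.0398 with the pools paired and 0.136 without. Without the pairing, 363 DEGs (1.65%) were called, 160 up- (0.727%) and 203 downregulated (0.922%). Of these, 358 were also called with the pairing, which added 412 DEGs, while 5 were called only without it.

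The 716 DEGs whose cryopreserved and fresh libraries did not overlap were 275 of the up- and 441 of the downregulated ones. Of all genes tested, 24.3% did not overlap, 12.1% with the cryopreserved libraries higher and 12.2% with them lower. The DEGs were called on these same libraries, so their lack of overlap is largely built in. In the other 54 DEGs the fresh level of 1 pool reached the cryopreserved level of another, although all but 2 of the 770 DEGs moved the same way in every pool.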

How the data were processed

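RNA of 3 pools of D-larvae was sequenced, and the authors filtered the reads with BBTools, checked them for rRNA with SortMeRNA, mapped them on the genome of Crassostrea gigas and quantified each gene with Salmon 1.1. The deposited table holds these estimated counts, neither normalized nor filtered. Of the values of the 6 libraries, 36% are not whole numbers. Reads of near-identical gene copies may be split between them.

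The estimated counts were rounded. Genes reaching 5 counts in 3 or more of the 6 libraries were kept, which adapts the filter of the study (5 counts, 3 samples, over all its libraries) to these 6. The thresholds (adjusted p under 0.05, absolute log2 fold change over 1.5) are those of its methods. Counts were normalized by TMM and tested in edgeR 4.0.16 (R 4.3.3) by the quasi-likelihood test with the replicate number as a block, a prior count of 0.125 and Benjamini-Hochberg adjustment over all genes tested. Standard errors are approximate, the size of the log2 fold change over the square root of F. Ratios within a pool were taken of normalized CPM with 0.05 CPM added. Alternatives used DESeq2 1.42.0 and limma 3.58.1.

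The study states that each pool was exposed to all conditions. Deviations from the group means correlated between same-numbered libraries with r from 0.495 to 0.716, so the numbers were taken to mark the pools. Between different numbers the mean r was -0.307, which largely follows from the same-numbered values, since the deviations cancel within a group. Replicates of a condition differed far beyond sampling noise (chi-square per degree of freedom 73.7 to 142.8). P-values cover the spread between 3 pools of 1 laboratory.

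The 4 genes named were, in each direction, the DEG with the smallest p-value and that with the highest mean CPM, among those with the same direction in all pools and a mean of at least 50 counts. The comparison, the rule for named genes and the tests were chosen with earlier results of these data known. The scripts were tested on simulated counts. The changes put in were equal in all pools and only in genes averaging at least 50 counts. Uneven changes and rarer genes were therefore not covered. Enrichments, GC content and gene length were not analysed here.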

Additional observations from a re-analysis of the deposited data

How the results depend on the processing

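Against the 770 DEGs called (299 up- and 471 downregulated), the count was 785 with RLE, 780 with upper quartile and 750 with library size only, of which 165 were up- and 585 downregulated. DESeq2 with the replicate block called 831 and limma-voom 803, and 751 and 756 of the 770 DEGs were among them. No filter gave 824, 10 counts in every library 600, thinning to the smallest total 780 and the fit of all 9 libraries with the replicate block 917. Without the replicate block edgeR called 363 (160 up- and 203 downregulated) and DESeq2 709. In these settings 0 of the 770 DEGs had the opposite sign where they were tested. This is largely built in, since these fits use the libraries on which the DEGs were called. A log2 limit of 1 gave 1505 (740 up- and 765 downregulated), an adjusted p under 0.01 386 (155 and 231), glmTreat 92 (28 and 64), and the prior count of 2 moved no count by over 1.5 times. At any fold change, the 2514 genes (1394 higher, 1120 lower) became 688 (401 and 287) without the block in edgeR, 4971 (2498 and 2473) with all 9 libraries and, with library size only, 789 higher and 2021 lower. The number of genes with an interval inside the limit was 12798 at 1 and 3076 at 0.5.

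Leaving out a pool gave between 537 and 851 DEGs, with 184 to 377 up- and 353 to 597 downregulated. The 537 and the 184 came without pool 3, and without pool 2 the split was 377 up- and 385 downregulated. At any fold change the range was 776 to 3643 genes, 315 to 1997 higher and 461 to 1646 lower, with 1608 without pool 2 and 776 without pool 3. With 2 pairs, 1 residual degree of freedom is left per gene, and the spread is pooled over genes. The cause of these differences was not tested. Genes 105329012, 105345814 and 105349083 stayed past the adjusted p of 0.05 in all 15 fits, with adjusted p up to 0.00478, 0.0142 and 0.0198. Gene 105318674 did not in 2 of them, at log2 fold changes of -1.90 without the block and -2.06 without pool 3. The medians of the pools under other scalings and the reading of DEGs in a pool left out were chosen after seeing the data. The genes under 1 CPM had the largest standard errors (median 0.51) and also the largest spread between pools (median SD 0.695).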
